A study of Mus musculus with 43 samples.

Results

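A list of 42 genes that sense DNA damage, repair it or carry out the p53 response was followed through cells sorted from mouse visual cortex, neuronal nuclei and microglia. Members were matched by gene symbol, and all 42 were found among the 23953 symbols listed for each library. Their expression was compared between mice with neurodegeneration and controls, and between model mice left alone and those exposed to a 40 Hz light flicker, called GENUS (gamma entrainment using sensory stimuli).

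The 43 RNA-seq libraries form 3 sets. Neuronal nuclei were sorted with an antibody to NeuN, so their values come from nuclear RNA, and microglia were sorted as CD11b and CD45 positive cells. CK-p25 mice carry a CaMKIIα promoter-driven tTA and a TetO transgene for p25 and GFP, so that p25, a shortened and long-lived activator of Cdk5, is made in excitatory forebrain neurons once doxycycline is withdrawn; they were sampled after 6 weeks of induction. The transgene is thus driven in neurons and not in microglia. Their controls, labelled CK, are called wild type control mice, with no allele named. Neuronal nuclei came from 5 CK libraries, 5 of CK-p25 mice left without stimulation and 4 of CK-p25 mice given GENUS for 43 days, and microglia came from 4 libraries of each of these groups. P301S mice (line PS19) express human MAPT, the tau gene, with the P301S mutation, driven by the Prnp promoter, and were taken at 8 months of age; their neuronal nuclei came from 6 wild type libraries, 6 of unstimulated P301S mice and 5 of P301S mice given GENUS for 22 days.

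Cells face breaks, crosslinks and altered bases in their DNA throughout life. Breaks of both strands are repaired either by homologous recombination, which copies the sister chromatid and so depends on DNA replication, or by end joining, which needs no copy and serves cells that no longer divide. Unrepaired damage activates the kinases Atm and Atr, which stabilise p53, and p53 in turn switches on genes that halt the cycle, such as Cdkn1a, or promote cell death, such as Bax, Bbc3 and Pmaip1. Neurons are post-mitotic, and p25 mice are a model in which DNA breaks and re-expression of cell cycle genes have been described.

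Promoter sequences of some of the members that changed, each holding a motif searched for, show what lies directly upstream of the start site. RefSeq promoters of the build GRCm38.p6 were at hand for 34 of the 42 members, and the 250 bases before the start are printed 5′ to 3′ on the gene's strand, with the motif found in capitals. In Rad51ap1 (chr6:126939588-126939837, minus strand), Fanca (chr8:123318577-123318826, minus strand) and Brca1 (chr11:101551956-101552205, minus strand) the capitals mark CCAAT or its reverse complement. In Brca2 (chr5:150522371-150522620, plus strand) they mark an E2F motif, read on the opposite strand. In Cdkn1a (upstream start, chr17:29090729-29090978, plus strand) they mark a match to the p53 consensus, a pair of decamers with the bases between them. No mismatch was allowed, so a decamer that departs from the consensus stays in small letters. The bases tgacatgttc directly after the capitals are such a decamer, which departs in its first base only.
Rad51ap1: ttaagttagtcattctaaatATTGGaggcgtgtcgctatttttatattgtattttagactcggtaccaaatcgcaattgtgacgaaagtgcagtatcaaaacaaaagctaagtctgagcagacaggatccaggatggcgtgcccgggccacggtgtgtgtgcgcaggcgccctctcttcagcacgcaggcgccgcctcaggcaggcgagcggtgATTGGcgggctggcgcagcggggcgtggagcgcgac
Fanca: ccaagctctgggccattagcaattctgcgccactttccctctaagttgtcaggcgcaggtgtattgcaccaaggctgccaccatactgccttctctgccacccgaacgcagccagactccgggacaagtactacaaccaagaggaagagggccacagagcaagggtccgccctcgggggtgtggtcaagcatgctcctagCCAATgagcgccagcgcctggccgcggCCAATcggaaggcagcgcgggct
Brca1: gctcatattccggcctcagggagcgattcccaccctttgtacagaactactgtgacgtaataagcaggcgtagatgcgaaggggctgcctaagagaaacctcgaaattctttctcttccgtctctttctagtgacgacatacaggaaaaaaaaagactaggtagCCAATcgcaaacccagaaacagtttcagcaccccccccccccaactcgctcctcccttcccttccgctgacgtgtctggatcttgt
Brca2: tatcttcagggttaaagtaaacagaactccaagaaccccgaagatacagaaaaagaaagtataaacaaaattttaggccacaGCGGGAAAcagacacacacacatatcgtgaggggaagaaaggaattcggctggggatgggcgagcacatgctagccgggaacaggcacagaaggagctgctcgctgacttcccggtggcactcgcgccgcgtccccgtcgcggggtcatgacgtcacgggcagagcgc
Cdkn1a: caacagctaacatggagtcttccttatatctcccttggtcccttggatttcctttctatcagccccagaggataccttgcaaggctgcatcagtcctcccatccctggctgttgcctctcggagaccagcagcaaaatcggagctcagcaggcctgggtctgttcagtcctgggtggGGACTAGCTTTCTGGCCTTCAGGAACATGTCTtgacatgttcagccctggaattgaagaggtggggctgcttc

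On both strands, CCAAT stood in 33.8% of all 32851 promoters. It stood in 21 of the 41 promoters of the 34 members, and these belong to 19 members. The E2F letters searched were TTTCCCGC, TTTCGCGC, TTTGCCGC and TTTGGCGC, found in 1.86% of all promoters and in Bard1, Brca2, Chek2 and Xrcc6 among the members. The CHR letters TTTGAA and TTCGAA stood in 17.1% of promoters and in Atr, Bard1 and Bax. A p53 match, with up to 13 bases between the decamers and no mismatch allowed, occurred in 0.0639% of promoters. Among the members it stood in Cdkn1a alone, from −73 to −42 relative to the start. No motif searched was found in the Palb2 window. A match is a description of these letters and not evidence of binding.

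Between 30 and 39 members reached 1 FPKM (fragments scaled to transcript length and library total) in each library of the CK-p25 neuron set, 30 to 32 in each of the P301S set and 29 to 33 in each of the microglia, while 12103 to 12555, 11754 to 12139 and 9942 to 10393 genes did so in all. The read depth is unknown. The 6 neuronal markers, which include Rbfox3 and Snap25, summed to 820.2 to 1360 FPKM in the neuron libraries and to at most 19.96 in microglia, and the 12 microglial markers summed to 37509 to 56292 FPKM in microglia and to at most 30.2 in neuron libraries. Both sorts therefore carried the markers of their labelled cell type. A gene can be listed at exactly 0 in these files, which is given as a listing and not as absence. The libraries are bulk samples, so that fewer cells of a type and less RNA per cell cannot be told apart.

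In neurons of CK-p25 mice, 4 of 7 tested members of homologous recombination and Fanca, 1 of 2 tested Fanconi members, were higher than in CK neurons, and none of the p53 group was called. Differences were tested with limma on log2(FPKM + 1) among genes with a mean of at least 1 FPKM over the set, and a gene was called at an adjusted p under 0.05 over all genes tested. Of the 38 members tested, 5 rose (Rad51ap1, Fanca, Brca1, Brca2 and Palb2) and 0 fell, where 0.891% of the 12567 genes tested rose, 0.119% fell and 1.01% were called in either direction. Without CK-p25 replicate 2 or 4, 3 members were called. Brca1, Rad51ap1 and Fanca, along with the uncalled Rad54l and Exo1, averaged under 1 FPKM in CK neurons and passed the minimum only through the CK-p25 libraries, so the count is a description and Brca2 and Palb2 are the called members that were above 1 FPKM on average in CK neurons too.

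**Figure D1:**
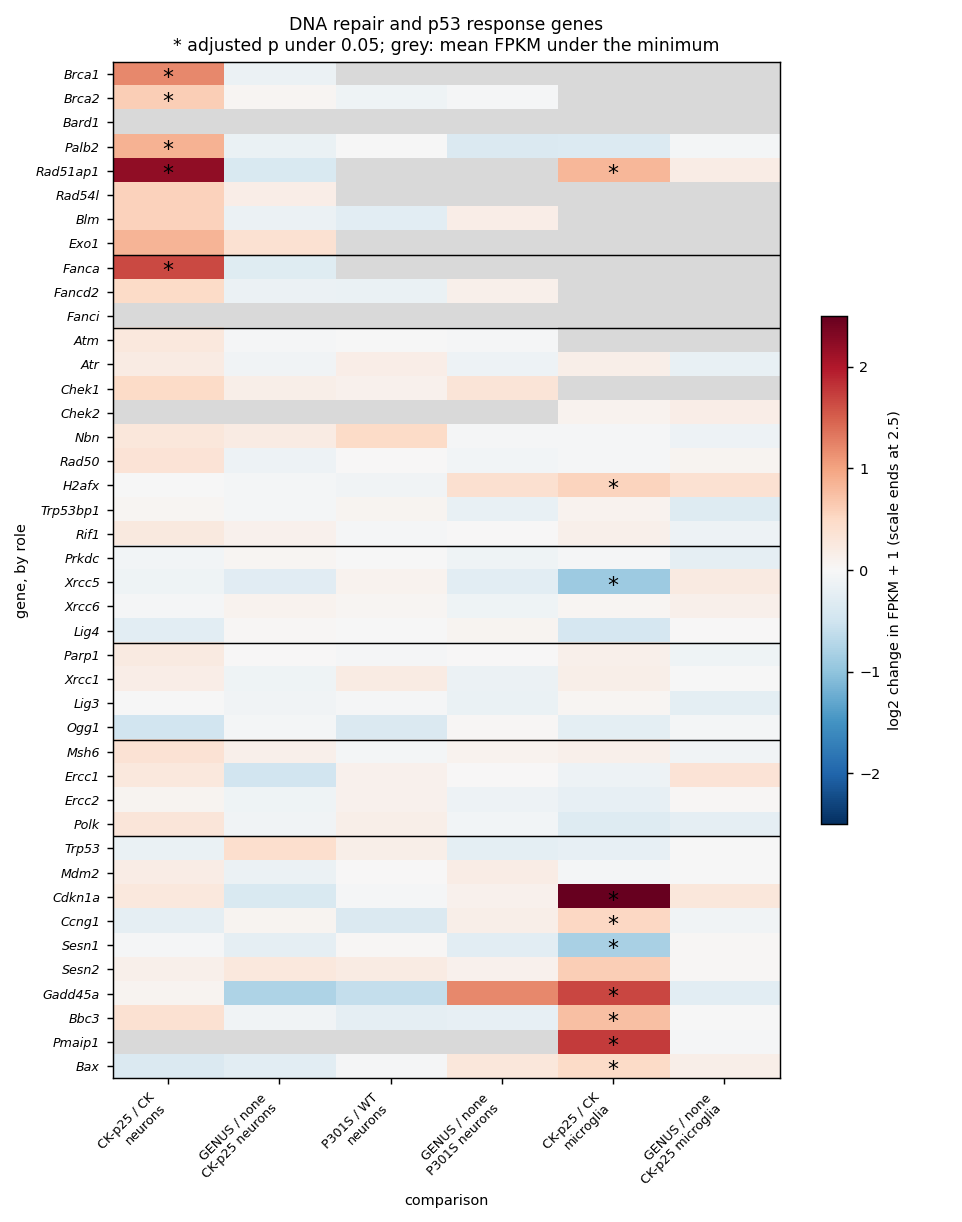
Log2 change of FPKM + 1 for the 42 members (rows, grouped by role and separated by lines) in 6 comparisons (columns), red for higher and blue for lower in the first group named; asterisks mark an adjusted p under 0.05 and grey marks genes under the mean minimum of 1 FPKM. Asterisks stand at 5 members in CK-p25 against CK neurons and at 10 in CK-p25 against CK microglia, and at none in the other 4 columns.

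Rad51ap1, an accessory factor of homologous recombination, had the largest log2 change of the members. Its levels were 0.291, 0.365, 1.48, 0 and 0.431 FPKM in the 5 CK libraries and 4.63, 8.24, 6.40, 6.15 and 3.95 FPKM in the 5 CK-p25 libraries. Every CK-p25 library was above every CK library, and the log2 change was 2.22 (SE 0.28, adjusted p = 0.000841). Fanca, part of the Fanconi core complex that acts on crosslinks between the DNA strands, stood at 1.56, 0.558, 1.04, 1.06 and 0.326 FPKM in CK and at 2.24, 5.00, 6.10, 6.46 and 5.69 FPKM in CK-p25 neurons. Its groups did not overlap either, with a 5.62-fold ratio of means and a log2 change of 1.66 (SE 0.26, adjusted p = 0.00445). The Fanca gene span overlaps Zfp276, and the counting strand is not given in the sources used here. Zfp276 averaged 9.71 FPKM in CK and 10.6 FPKM in CK-p25 neurons, and its part in the Fanca values was not tested.

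Brca1, a ubiquitin ligase subunit that steers breaks into recombination, measured 0.375, 0.659, 0.191, 0.179 and 0.439 FPKM in CK and 1.35, 2.60, 1.80, 2.33 and 2.83 FPKM in CK-p25 neurons. The means were 0.369 ± 0.198 and 2.18 ± 0.603 FPKM (SD, n = 5 each), a 5.92-fold ratio, and the log2 change was 1.21 (SE 0.21, adjusted p = 0.00983). All CK values of Brca1 lay below 1 FPKM and all CK-p25 values above it. Brca2, a core factor of homologous recombination, was well expressed in both groups, at 7.14, 4.36, 5.02, 5.56 and 6.40 FPKM in CK and 8.40, 9.81, 9.10, 9.26 and 9.56 FPKM in CK-p25 neurons. Its groups stayed apart with a smaller difference, 1.62-fold between means and 0.62 on the log2 scale (SE 0.12, adjusted p = 0.0201). Palb2, the bridge between Brca1 and Brca2, had 1.07, 0.992, 1.32, 2.04 and 1.51 FPKM in CK and 2.85, 3.66, 4.10, 3.39 and 2.62 FPKM in CK-p25 neurons. The Palb2 groups did not overlap, the ratio of means was 2.40 and the log2 change was 0.86 (SE 0.17, adjusted p = 0.0209). The call of Brca2 was lost without CK replicate 3 or CK-p25 replicate 2, 4 or 5 (highest adjusted p = 0.0618). It was also lost with only the 2 compared groups in the fit. The Palb2 call was lost without CK replicate 1 or 2 or CK-p25 replicate 2, 3 or 4 (highest adjusted p = 0.0696).

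**Figure D2:**
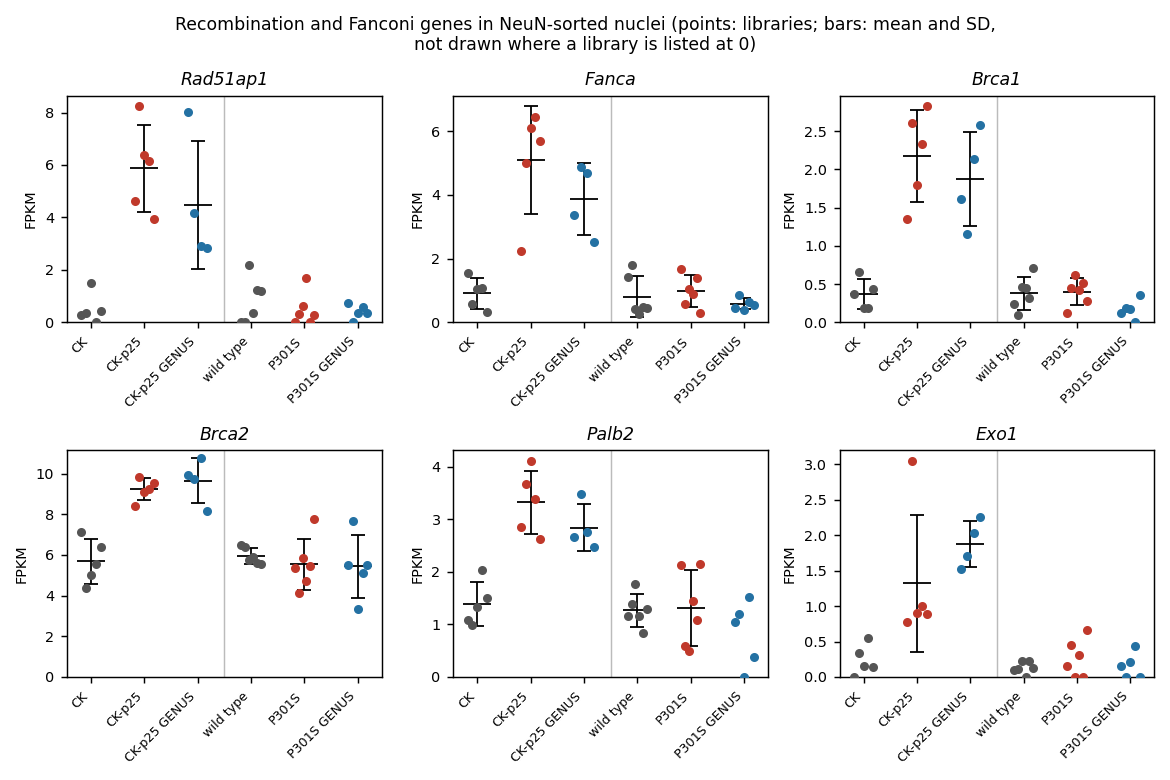
FPKM of 6 recombination and Fanconi genes in each neuronal nuclei library (points) of the 6 neuron groups, with mean and SD as bars except in groups with a library listed at 0. In all 6 panels every CK-p25 library lies above every CK library, while the 3 groups on the right, wild type, P301S and P301S with GENUS, overlap.

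Other members of the recombination and Fanconi groups were higher in mean without passing the test or the minimum. Exo1, an exonuclease that resects broken ends, ran from 0 to 0.544 FPKM in CK and from 0.772 to 3.04 FPKM in CK-p25 neurons, without overlap, and its log2 change of 0.85 (SE 0.25) had an adjusted p of 0.166. Fanci, the partner of Fancd2 at crosslinks, was listed at 0, 0, 0, 0.131 and 0 FPKM in CK and at 0.579, 1.54, 0.763, 1.75 and 0.823 FPKM in CK-p25 neurons, and fell below the minimum. When no minimum was applied it was called, with a log2 change of 0.99 (SE 0.16, adjusted p = 0.00723). The Fanci span overlaps Polg, which averaged 21.1 FPKM in CK and 23.2 FPKM in CK-p25 neurons. Spans of 14 of the 42 members overlap another listed gene, Msh6 with Fbxo11 among them. The part of these overlaps in the values was not tested. Blm, a helicase that unwinds recombination intermediates, changed by 0.57 (SE 0.19, adjusted p = 0.245), Rad54l, a motor protein that moves along DNA, by 0.57 (SE 0.24, adjusted p = 0.394) and Fancd2, which is ubiquitinated at stalled forks, by 0.49 (SE 0.20, adjusted p = 0.373) on the log2 scale. Bard1, the partner of Brca1, was also below the minimum, with 0.0781 to 0.660 FPKM in CK and 0.461 to 1.42 FPKM in CK-p25 neurons.

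Members of the other repair routes gave 0 calls in CK-p25 neurons. Among the break sensors and checkpoint members, 8 of 9 were tested, and their log2 changes ran from −0.02 for H2afx, the histone variant that is phosphorylated at breaks, to 0.49 for Chek1, the checkpoint kinase downstream of Atr. Atm averaged 10.5 ± 0.978 FPKM in CK and 12.9 ± 2.07 FPKM in CK-p25 neurons (SD, n = 5 each), with overlapping libraries. All 4 end joining genes (Prkdc, Xrcc5, Xrcc6 and Lig4) had log2 changes at or below −0.04, the lowest being −0.27 for Lig4 (SE 0.21, adjusted p = 0.686). Msh6, a mismatch recognition protein, did not overlap between groups, at 8.04 to 10.9 FPKM in CK and 11.2 to 14.6 FPKM in CK-p25 neurons, yet its log2 change of 0.36 (SE 0.13) had an adjusted p of 0.284. Including it, 8 of the 42 members had every CK-p25 library above every CK library. Of the 38 tested, 7 did so, where 2.05% of all tested genes did. Of the 7, Rad51ap1, Fanca, Brca1 and Exo1 averaged under 1 FPKM in CK neurons and passed the minimum only through the CK-p25 groups. This count is therefore a description.

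Members of the p53 group gave 0 calls among 9 tested in CK-p25 neurons. Trp53, which encodes p53 and is controlled largely at the protein level, was at 5.06 ± 1.80 FPKM in CK and 4.53 ± 2.24 FPKM in CK-p25 neurons (SD, n = 5 each). Its negative regulator and target Mdm2 was at 24.6 ± 2.44 and 28.1 ± 1.32 FPKM, a log2 change of 0.19 (SE 0.10, adjusted p = 0.499). Cdkn1a, the cyclin-dependent kinase inhibitor, had 0.279, 1.40, 1.18, 3.66 and 3.71 FPKM in CK and 2.66, 1.43, 1.95, 3.08 and 2.52 FPKM in CK-p25 neurons, and the groups overlapped (log2 change 0.27, SE 0.31, adjusted p = 0.808). Bax, which permeabilises mitochondria in apoptosis, changed by −0.37 (SE 0.33), and Gadd45a, a stress-induced growth arrest gene, by 0.08 (SE 0.43). The standard errors of Cdkn1a, Bax, Bbc3 and Gadd45a lay between 0.31 and 0.43 on the log2 scale, so that small changes of these genes were not detectable here.

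The median log2 change was 0.24 over the 38 tested members and −0.00 over all 12567 tested genes. At an unadjusted p under 0.05 there were 16 of the 38 members, against 11.2% of all tested genes. Both figures include the 5 members that passed the minimum only through the CK-p25 libraries and are given as a description. Beyond the members, a wider list of 137 repair, checkpoint and p53 genes had 125 tested and 7 higher, with 0 lower. Among all tested genes, 0.891% rose and 0.119% fell. By role, the calls were 1 of 24 tested recombination genes, 0 of 8 Fanconi genes, 4 of 19 break sensing and checkpoint genes, 1 of 21 base excision and single-strand repair genes, 1 of 30 mismatch, excision and translesion genes, and 0 of 6 end joining and 0 of 17 p53 genes. The median log2 change of these 24 recombination genes was 0.11. The 5 with the smallest p were Timeless, a replication fork protein, with a log2 change of 2.10 (SE 0.16), Lig1, the ligase that joins Okazaki fragments, with 1.72 (SE 0.13), the break adaptor Mdc1 with 1.22 (SE 0.11), the checkpoint mediator Clspn with 2.06 (SE 0.21) and the Atr activator Topbp1 with 0.86 (SE 0.14). Their adjusted p-values ran from 6.23e-06 to 0.0053. Clspn averaged 0.198 FPKM in CK neurons and passed the minimum only through the CK-p25 libraries. The count of the wider list is therefore a description. Timeless averaged 1.75 ± 0.492 FPKM in CK and 10.7 ± 1.58 FPKM in CK-p25 neurons, and Lig1 averaged 7.27 ± 1.49 and 26.1 ± 3.59 FPKM (SD, n = 5 each).

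Genes of DNA replication rose in the same libraries, and sums of glial markers went different ways. The 19 S-phase genes, which include the Mcm helicase subunits, summed to 26.8 to 36.1 FPKM in CK and 83.4 to 127 in CK-p25 neurons. Of 16 tested, 13 rose, where 0.891% of all tested genes did. In CK neurons 8 of the 19 averaged at least 1 FPKM. Others were tested only through the CK-p25 libraries, so the count is a description. The 15 mitosis genes summed to 10.4 to 15.7 and to 18.6 to 28.3 FPKM, with 2 of 9 tested higher and Ccnb1 listed at 0 in every library of both groups. Of these 15, 5 averaged at least 1 FPKM in CK neurons, so the same limit holds. The 12 microglial markers summed to 7.56 to 12.9 FPKM in CK and to 12.01 to 21.0 FPKM in CK-p25 neurons (1 of 5 tested higher), and C1qc and Tyrobp were listed at 0 throughout CK. The 7 astrocyte markers summed to 24.0 to 31.3 and to 31.9 to 46.1 FPKM, with 1 of 7 higher. The 6 oligodendrocyte markers summed to 76.9 to 114 FPKM in CK and 60.6 to 78.9 FPKM in CK-p25 neurons, with 0 of 5 tested called. Sums of the 5 oligodendrocyte precursor markers overlapped, at 1.18 to 4.08 and 1.39 to 3.63 FPKM. The 6 neuronal markers summed to 929.7 to 1019 and to 855.8 to 972.8 FPKM, with 1 of 6 lower. The part of these genes and cell types in the repair gene values was not tested.

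No member was called by limma between GENUS-treated and unstimulated CK-p25 neurons. In this comparison 0 of 38 members and 0 of 12567 genes were called (0%), with 7.42% of genes and 1 of 38 members, Ercc1, at an unadjusted p under 0.05. Ercc1, a subunit of the nuclease that cuts damaged strands, changed by −0.48 (SE 0.22, unadjusted p = 0.0491, adjusted p = 0.670), with overlapping libraries. Rad51ap1 was at 8.03, 4.16, 2.90 and 2.81 FPKM in the 4 GENUS libraries, Fanca at 3.38, 4.89, 4.69 and 2.51 FPKM, and Brca1 at 1.62, 1.15, 2.14 and 2.58 FPKM. These values overlap those of unstimulated CK-p25 neurons, and the log2 changes with GENUS were −0.39 (SE 0.30), −0.30 (SE 0.27) and −0.15 (SE 0.22). For Brca2 and Palb2 they were 0.06 (SE 0.13) and −0.17 (SE 0.18).

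Against the same CK libraries, GENUS-treated CK-p25 neurons had 5 of 38 members higher and 0 lower, where 1.07% of genes tested were higher and 0.382% lower. Apart from Brca2, these members averaged under 1 FPKM in CK neurons and passed the minimum only through the CK-p25 groups, so the count is a description. The log2 change was 1.83 for Rad51ap1, 1.36 for Fanca, 1.06 for Brca1 and 0.68 for Brca2, with adjusted p-values of 0.00627, 0.0242, 0.0310 and 0.0148. The call of Brca1 was lost without CK replicate 1, 3 or 4 or GENUS replicate 1, 3 or 4 (highest adjusted p = 0.0989). That of Fanca was lost without CK replicate 2 or GENUS replicate 2 or 3 (highest adjusted p = 0.0795). That of Brca2 was lost without GENUS replicate 3 (adjusted p = 0.0596) and with only the 2 compared groups in the fit. Exo1 took the place of Palb2, with 1.52, 1.70, 2.04 and 2.25 FPKM in the GENUS libraries, all above the CK range, and a log2 change of 1.23 (adjusted p = 0.0319), a call that leaving out CK replicate 4 alone among these 9 libraries did not end. Both CK-p25 groups were compared with the same 5 CK libraries, so the counts are not independent. Without GENUS replicate 3, 1 member was called, and without CK replicate 1 or 3 or GENUS replicate 1, 2 or 4, 3 were. In the same GENUS libraries the S-phase genes summed to 100.2 to 115 FPKM and the microglial markers to 19.97 to 30.2 FPKM. The astrocyte markers summed to 44.3 to 132 FPKM and the oligodendrocyte markers to 67.5 to 97.4 FPKM. The part of these genes and markers in the result was not tested.

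P301S neurons showed no called member. Of 33 tested, 0 were called against wild type neurons, where 0.00817% of 12239 genes (a single gene) were called, and 1 of 33 members had an unadjusted p under 0.05 against 5.64% of genes. That member was Nbn, a subunit of the complex that first binds broken ends, at 5.45, 8.40 and 9.74 FPKM (lowest, median and highest of 6) in wild type and 8.82, 11.8 and 13.4 FPKM in P301S neurons, with overlap. Its log2 change was 0.47 (unadjusted p = 0.0147, adjusted p = 0.856). The genes that rose in CK-p25 neurons overlapped between P301S and wild type libraries. Brca1 had 0.0932, 0.379 and 0.713 FPKM in wild type and 0.126, 0.437 and 0.624 FPKM in P301S neurons, and Brca2 had 5.57, 5.83 and 6.48 against 4.11, 5.39 and 7.75 FPKM. Brca1, Rad51ap1 and Fanca were below the minimum in this set. Trp53 averaged 3.31 FPKM in wild type and 3.86 FPKM in P301S neurons. Mdm2 averaged 26.4 and 26.6 FPKM and Cdkn1a 1.13 and 1.12 FPKM in the same order, all with overlapping libraries. The S-phase genes summed to 26.9 to 38.8 FPKM in wild type and 25.6 to 34.0 FPKM in P301S neurons.

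With GENUS, P301S neurons had 0 of 33 members called against unstimulated P301S neurons, with 0% of 12239 genes called and 4.28% of genes at an unadjusted p under 0.05. Gadd45a was the member with the smallest p, at 0.427, 1.99 and 4.35 FPKM (lowest, median and highest of 6) without and 5.41, 10.5, 1.69, 6.41 and 10.1 FPKM with GENUS. The groups overlapped through 1 GENUS library at 1.69 FPKM, and the log2 change of 1.19 (SE 0.38) had an unadjusted p of 0.0058 and an adjusted p of 0.999. Wild type neurons held 2.01 to 6.35 FPKM of Gadd45a. GENUS-treated P301S against wild type neurons also gave 0 members and 0% of genes called, with 5.73% of genes at an unadjusted p under 0.05. The wider list gave 0 of 115 tested genes in each of the 3 comparisons of this set.

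The change in CK-p25 neurons was set against that in P301S neurons by a test of the difference itself. Of 38 members, 3 passed, against 0.446% of 12766 genes, all 3 in the direction of CK-p25 (0.439% of genes in that direction and 0.00783% in the other). These were Rad51ap1 with a difference of 2.48 on the log2 scale (SE 0.44, adjusted p = 0.00288), Brca1 with 1.18 (SE 0.25, adjusted p = 0.0221) and Fanca with 1.50 (SE 0.35, adjusted p = 0.0418). All 3 averaged under 1 FPKM in CK neurons and over the whole P301S set and entered the test only through the CK-p25 libraries, so their count is a description. Brca2 and Palb2, which passed the minimum in both sets, did not pass the test, at 0.73 (SE 0.20, adjusted p = 0.136) and 0.88 (SE 0.31, adjusted p = 0.390). With a pseudocount of 0.1, 0 of the differences passed, and without CK-p25 replicate 2 or 5, 1 did. The models differ in transgene, promoter and control line, whose effects cannot be told apart here.

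In microglia of CK-p25 mice, members of the p53 group were called, and 6 of the 8 recombination members and all 3 Fanconi members were too low to test. Of 31 members tested, 8 rose and 2 fell, where 16.1% and 10.9% of 10394 genes did so, 27% in either direction. A count of 10 in 31 is thus close to the share among all genes, and the individual genes below carry the description. Within the p53 group, 6 of 10 rose and 1 fell.

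Cdkn1a, which halts the cycle by binding cyclin-dependent kinases, measured 10.6, 7.39, 12.9 and 15.8 FPKM in CK and 76.6, 63.6, 85.5 and 101 FPKM in CK-p25 microglia. The groups lay far apart, with a 7.0-fold ratio of means and a log2 change of 2.73 (SE 0.21, adjusted p = 4.79e-07). Pmaip1, which encodes the BH3-only death protein Noxa, stood at 18.1, 11.7, 15.1 and 11.4 FPKM in CK and at 46.5, 39.9, 49.7 and 62.7 FPKM in CK-p25 microglia. Its libraries did not overlap, with a ratio of 3.54 and a log2 change of 1.76 (SE 0.23, adjusted p = 5.67e-05). Gadd45a, whose span overlaps the non-coding gene E230016M11Rik, had 4.08, 2.75, 5.15 and 5.15 FPKM in CK and 13.4, 15.2, 12.4 and 23.4 FPKM in CK-p25 microglia. All CK-p25 values of Gadd45a were above the CK values, and the log2 change was 1.68 (SE 0.28, adjusted p = 0.000533).

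The remaining called p53 targets moved by less. Bbc3, which encodes the BH3-only protein Puma, went from 3.83, 6.16, 5.33 and 6.84 FPKM in CK to 9.41, 10.6, 9.92 and 9.33 FPKM in CK-p25 microglia, a log2 change of 0.75 (SE 0.18, adjusted p = 0.00582). Bax went from 69.7, 70.8, 88.2 and 76.5 FPKM to 118, 93.0, 114 and 102 FPKM, a log2 change of 0.48 (SE 0.10, adjusted p = 0.00268). Neither gene overlapped between groups, and Bax had the highest mean FPKM of the members in all 3 microglia groups. Ccng1, a cyclin that p53 induces, stood at 29.8, 16.1, 27.1 and 21.1 FPKM in CK and 35.7, 29.8, 32.5 and 35.3 FPKM in CK-p25 microglia, with the lowest CK-p25 library just above the highest CK library. Its log2 change of 0.52 (SE 0.16, adjusted p = 0.0299) was lost without CK replicate 2 or 4 or CK-p25 replicate 1, 3 or 4 (highest adjusted p = 0.0833).

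Sesn1 and Sesn2, related stress proteins that restrain mTOR signalling, went opposite ways in mean. Sesn1 fell from 91.2, 80.1, 67.2 and 63.6 FPKM in CK to 53.3, 50.2, 33.2 and 35.3 FPKM in CK-p25 microglia, without overlap, a log2 change of −0.81 (SE 0.16, adjusted p = 0.00181). Sesn2 was at 4.93, 3.42, 4.18 and 3.56 FPKM in CK and 7.81, 8.01, 7.03 and 4.27 FPKM in CK-p25 microglia, overlapping through 1 library, with a log2 change of 0.61 (SE 0.22, adjusted p = 0.0557). Trp53 and Mdm2 were not called. Trp53 was at 44.4 ± 6.92 FPKM in CK and 37.8 ± 1.46 FPKM in CK-p25 microglia, and Mdm2 at 27.0 ± 3.84 and 25.9 ± 1.94 FPKM (SD, n = 4 each).

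**Figure D3:**
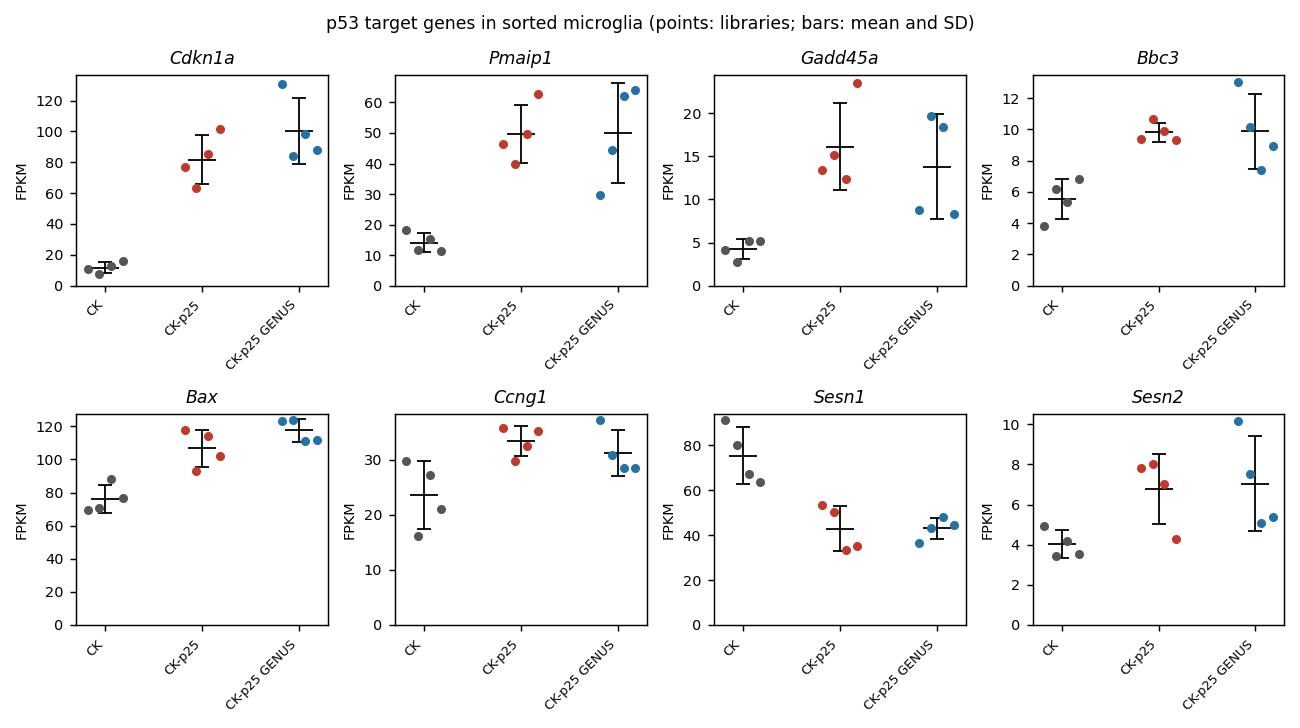
FPKM of 8 p53 target genes in each microglia library (points) of the 3 groups (CK, CK-p25 and CK-p25 with GENUS), with mean and SD as bars. Cdkn1a lies at 7.39 to 15.8 FPKM in CK and at 63.6 to 131 FPKM in both CK-p25 groups, and Sesn1 alone among the 8 is lower in the CK-p25 groups.

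Outside the p53 group, 3 members were called in CK-p25 microglia. Xrcc5, the larger Ku subunit that caps broken ends for end joining, fell from 10.8, 13.1, 8.99 and 11.5 FPKM in CK to 4.64, 5.04, 4.98 and 7.14 FPKM in CK-p25 microglia, without overlap (log2 change −0.91, SE 0.16, adjusted p = 0.000686). Its partner Xrcc6 was at 13.2 ± 1.71 and 13.8 ± 2.39 FPKM (SD, n = 4 each), a log2 change of 0.05 (SE 0.13). H2afx rose from 7.71, 5.31, 7.12 and 4.69 FPKM to 10.5, 7.82, 9.66 and 9.78 FPKM, a log2 change of 0.55 (SE 0.16, adjusted p = 0.0178). Its groups were separated by a narrow margin, and the call was lost without CK replicate 2 or 4 or CK-p25 replicate 1 (highest adjusted p = 0.0561). Rad51ap1 was at 0.336, 0.478, 0.239 and 0.540 FPKM in CK and 0.820, 1.04, 2.21 and 2.22 FPKM in CK-p25 microglia. That gene, the single tested member with a CK mean under 1 FPKM here, changed by 0.84 (SE 0.28, adjusted p = 0.0383), a call lost without any 1 of the 4 CK libraries or without CK-p25 replicate 3 or 4 (highest adjusted p = 0.107).

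Most recombination members were scarcely detected in microglia. Brca2 was at 0.415 ± 0.119 FPKM in CK and 0.427 ± 0.223 FPKM in CK-p25 microglia (SD, n = 4 each), Fanca at no more than 0.116 and 0.594 FPKM in any library, and Brca1 at no more than 0.241 and 0.663 FPKM. In all, 11 members were below the minimum in this set, 9 of them in the recombination and Fanconi groups. Of the wider list, 15 of 114 tested genes rose and 3 fell, where 16.1% and 10.9% of all tested genes did so. The list's counts are thus not above those shares. Its recombination genes were mostly measurable, with 22 of 29 tested and 6 of them higher. The 5 with the smallest p were Shfm1, a small partner of Brca2 (log2 change 0.55), Swi5, a recombination accessory factor (0.58), the kinase Plk2 (1.96), the nuclease Dna2 (1.14) and the replication clamp Pcna (0.55). Plk2 averaged 4.97 ± 2.96 FPKM in CK and 20.99 ± 7.51 FPKM in CK-p25 microglia, and Shfm1 averaged 190.3 ± 2.51 and 279.9 ± 10.1 FPKM (SD, n = 4 each). Dna2 averaged 0.721 FPKM in CK microglia and passed the minimum only through the CK-p25 groups.

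Proliferation and other cell type markers also differed between these microglia groups. The mitosis genes summed to 3.46 to 17.6 FPKM in CK and 25.7 to 52.9 FPKM in CK-p25 microglia, with 9 of 11 tested higher. The S-phase genes summed to 79.2 to 101 and 121 to 145 FPKM, with 6 of 15 higher. Of all tested genes, 16.1% rose. In CK microglia 4 of the 15 mitosis genes and 12 of the 19 S-phase genes averaged at least 1 FPKM. Some were therefore tested only through the CK-p25 groups, and both counts are a description. The 7 markers of monocytes, neutrophils and lymphocytes summed to 222 to 398 FPKM in CK and 147 to 489.9 FPKM in CK-p25 microglia, with 0 of 6 called, and none of them was listed at 0 in every library of a group. Oligodendrocyte markers summed to 149.9 to 956 and 134 to 231 FPKM, with 1 of 6 lower. Of the 12 microglial markers, 5 rose and 4 fell, and their sum was 37509 to 45470 FPKM in CK and 46191 to 53498 FPKM in CK-p25 microglia, without overlap. The 5 endothelial markers summed to 14.6 to 20.5 and 7.85 to 11.4 FPKM, also without overlap, with 1 of 4 tested higher and 1 lower. Their part in the repair gene values was not tested.

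No member was called between GENUS-treated and unstimulated CK-p25 microglia by limma. Of 31 members 0 were called, 0% of 10394 genes were called, and 2 members and 7.33% of genes had an unadjusted p under 0.05. H2afx was at 13.6, 14.1, 10.8 and 11.9 FPKM with GENUS, all above the unstimulated CK-p25 libraries, with a log2 change of 0.38 (SE 0.16, adjusted p = 0.651), while 2.41% of tested genes had all GENUS libraries higher. Ercc1 was the second, at 0.34 (SE 0.15), with overlap. Cdkn1a had 131, 84.0, 98.2 and 87.6 FPKM with GENUS, overlapping the unstimulated group, and changed by 0.29 (SE 0.21). Pmaip1 changed by −0.04 (SE 0.23) and Sesn1 by 0.02 (SE 0.16).

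Against the CK libraries that the unstimulated group also used, GENUS-treated CK-p25 microglia had 8 of 31 members higher and 2 lower, where 17.3% and 13.4% of genes were. Cdkn1a was higher by 3.02, Pmaip1 by 1.72, Gadd45a by 1.41, Rad51ap1 by 1.02, H2afx by 0.93, Bbc3 by 0.73 and Bax by 0.62 on the log2 scale. Sesn1 was lower by a log2 change of −0.79 and Xrcc5 by −0.69. Sesn2 was called here, at 0.64 (adjusted p = 0.0400), but not without CK replicate 2, 3 or 4 or GENUS replicate 1 or 2 (highest adjusted p = 0.123), and Ccng1 was not, with 28.4 to 37.2 FPKM. The neutrophil and lymphocyte marker sum spread from 22.2 to 1148 FPKM across the 4 GENUS libraries, and its part in these values was not tested.

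Setting the p25 effect in neurons against that in microglia, 9 of 40 members differed, against 12.5% of 14032 genes tested. Rad51ap1, Fanca and Brca1 averaged under 1 FPKM in CK neurons and CK microglia and entered only through the CK-p25 groups. The count is therefore a description. The difference was positive, higher in neurons, for 6 of the 40 (5.51% of genes) and negative for 3 (7.01%). On the log2(FPKM + 1) scale the change was more positive in neurons for Rad51ap1 (difference in log2 change 1.38, SE 0.40), Fanca (1.22, SE 0.31), Palb2 (1.20, SE 0.28), Brca1 (0.96, SE 0.27) and Brca2 (0.62, SE 0.19), with adjusted p-values from 0.00503 to 0.0293. It was more positive in microglia for Cdkn1a (−2.46, SE 0.40, adjusted p = 0.000123), Pmaip1 (−1.66, SE 0.30, adjusted p = 0.000468) and Ccng1 (−0.74, SE 0.24, adjusted p = 0.0392). Sesn1 changed by −0.03 (SE 0.16) in neurons and by −0.81 in microglia, and its difference was 0.79 (SE 0.25, adjusted p = 0.0373). Gadd45a and Xrcc5 did not pass, at −1.60 (SE 0.57, adjusted p = 0.0683) and 0.81 (SE 0.30, adjusted p = 0.0807). With a pseudocount of 0.1, Cdkn1a and Palb2 passed and the other 7 did not, with adjusted p-values of 0.638 for Fanca, 0.325 for Brca2, 0.301 for Brca1, 0.0928 for Rad51ap1, 0.0714 for Pmaip1, 0.0548 for Ccng1 and 0.0543 for Sesn1. As a ratio of means, Fanca was 5.62-fold higher in CK-p25 than in CK neurons and 11.4-fold higher in microglia, where its means were 0.415 and 0.0363 FPKM and its libraries overlapped, so the order of the Fanca changes turns with the scale. Brca1 and Brca2 in microglia and Pmaip1 in neurons were likewise below 1 FPKM on average. The sorts differ in RNA fraction and library kit, which cannot be told apart from cell type in the levels.

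**Figure D4:**
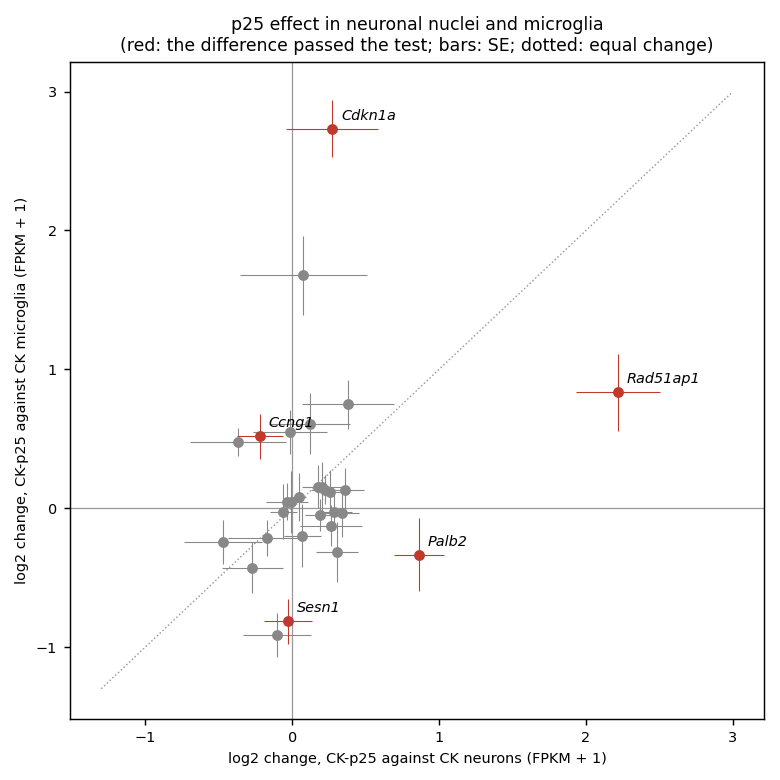
Log2 change of FPKM + 1 between CK-p25 and CK in neuronal nuclei (horizontal) and in microglia (vertical) for the 29 members tested in both sets, with SE as bars and a dotted line of equal change. Red points passed the test of the difference between the sorts; Rad51ap1 lies far to the right and Cdkn1a far up.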

How the data were processed

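For each of the 43 libraries the authors deposited FPKM values under 23953 gene symbols. The submitters' processing notes list STAR, Cufflinks 2.0.0 and mm9 without saying how each was used. How strand was set, and which annotation was used, is not given in the sources used here. FPKM are not counts and depth is unknown, so no counting interval is given.

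Groups and replicate numbers came from the sample titles. The labels do not tie replicates to separate animals; the p-values therefore cover just the spread between samples, which may be technical. No files were identical, and replicates correlated at 0.878 to 0.912 (CK-p25 neurons), 0.837 to 0.886 (P301S neurons) and 0.946 to 0.976 (microglia). The members and lists were chosen with earlier results of these data known.

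In each of 3 sets, genes with a mean of at least 1 FPKM (12567, 12239 and 10394) entered a linear model of 3 groups on log2(FPKM + 1), by limma 3.58.1 (R 4.3.3, mean-variance trend). This scale understates changes of low genes. P-values are two-sided and adjusted by the Benjamini-Hochberg method over all genes tested, with a threshold of 0.05. Of the 42 members, 38, 33 and 31 were tested in the 3 sets. Differences between effects were tested as contrasts over both sets, which leave sort and kit confounded with level. Named members are those past the threshold, with Trp53, Mdm2 and Cdkn1a in every set, and up to 5 genes of the wider list by smallest p. Other members are given only in part, as levels or log2 changes. Members named for an unadjusted p, for libraries that do not overlap, or as below the minimum were chosen after their values were seen. The model was also run on simulated data. Genes changed there averaged above the minimum by a margin, so members near the minimum were not covered.

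Same-numbered libraries deviated together, with every correlation above 0.1, only between unstimulated and GENUS-treated microglia (0.338, 0.166, 0.105 and 0.301), and the numbers were taken as pairing there on that ground alone. With the replicate number as a block, 0 members were called in that comparison too. Promoters are RefSeq sequences of GRCm38.p6, a build other than that of the files, so they were matched by symbol. Alternatives were 2 other pseudocounts, no minimum, a minimum of 5 FPKM, median-ratio scaling, only the compared groups in the fit, sample weights, the replicate block and leaving out each library.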

Additional observations from a re-analysis of the deposited data

Results flagged for a closer look

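A pair of members had 1 library far from the rest of its group. Exo1 was at 3.04 FPKM in CK-p25 neuron replicate 2 and at 1.0 FPKM in the nearest of the other CK-p25 libraries. Xrcc5 was at 7.14 FPKM in CK-p25 microglia replicate 4 and at 5.04 FPKM in the nearest other library, still below every CK library. Such a gap was looked for in 51 groups of values, and chance gives about 1 in 20.

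For 9 members the p25 effect on log2(FPKM + 1) differed between neurons and microglia. Of these, Rad51ap1, Fanca and Brca1 entered the test only through the CK-p25 groups, where they are high. The difference, neurons minus microglia, was 1.38 for Rad51ap1, 1.22 for Fanca, 1.20 for Palb2, 0.96 for Brca1, 0.62 for Brca2 and 0.79 for Sesn1. It was −2.46 for Cdkn1a, −1.66 for Pmaip1 and −0.74 for Ccng1. Cdkn1a, Pmaip1, Palb2 and Fanca passed in all 18 fits that left out a library, but with a pseudocount of 0.1 only Cdkn1a and Palb2 of the 9 passed. Fanca then had an adjusted p of 0.638 and Pmaip1 of 0.0714, Brca1 of 0.301, Rad51ap1 of 0.0928 and Brca2 of 0.325. As a ratio of means the Fanca change was larger in microglia, 11.4-fold against 5.62-fold in neurons. The call of Brca1 was lost without CK-p25 microglia replicate 2, and that of Rad51ap1 without CK-p25 microglia replicate 1 or 2. Brca2 lost its call in 6, Sesn1 in 10 and Ccng1 in 10 of those fits, with highest adjusted p-values of 0.0804, 0.0911 and 0.104.

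For 3 members the test of the difference between the CK-p25 and P301S effects in neurons passed, and all 3 entered it only through the CK-p25 libraries, where they are high. The difference, CK-p25 minus P301S, was 2.48 for Rad51ap1, 1.18 for Brca1 and 1.50 for Fanca. Rad51ap1 passed in all 22 fits that left out a library, and none of the 3 passed with a pseudocount of 0.1 (adjusted p = 0.197, 0.227 and 0.288). Brca1 lost its call without CK-p25 replicate 2 or 5, and Fanca in 16 of the 22, with a highest adjusted p of 0.111.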

How the results depend on the processing

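No called member reversed its direction under the alternatives run. Changes of uncalled members and of the wider list were not followed through all of these. In CK-p25 against CK neurons the 5 called members became 1 with a minimum of 5 FPKM, where fewer members could be tested (24 in place of 38), and 2 with the replicate block, and ranged from 3 to 6 when single libraries were left out. GENUS-treated CK-p25 against CK neurons went from 5 to 1 and 1 under the same alternatives, with a range of 1 to 5. The difference between neurons and microglia went from 9 to 2 with a pseudocount of 0.1 and to 5 with a minimum of 5 FPKM (range 6 to 10), and that between CK-p25 and P301S neurons from 3 to 0 and 0 (range 1 to 3). The cause of the change with pseudocount was not tested. Leaving out single libraries, CK-p25 against CK microglia gave 7 to 10 members without and 9 to 11 with GENUS, with Ccng1, Rad51ap1, H2afx and Sesn2 among those lost in some fits. The comparisons of GENUS-treated with unstimulated mice, and the 2 other P301S comparisons, gave 0 members under each alternative. Outside the pairing of GENUS-treated and unstimulated microglia, correlations of same-numbered libraries ran from −0.10 to 0.14, so the replicate block there rests on a shared number only; it took away the neuron calls of Brca1, Brca2 and Palb2 (adjusted p = 0.0565, 0.0698 and 0.0797), left Rad51ap1 alone of the 5 in GENUS-treated CK-p25 against CK neurons, and gave 11 members in both comparisons of CK-p25 with CK microglia. Rad51ap1 and Fanca in CK-p25 against CK neurons, and Cdkn1a, Pmaip1, Gadd45a, Bax, Bbc3, Sesn1 and Xrcc5 in CK-p25 against CK microglia, were called under each alternative in which they were tested. With only the 2 compared groups in the fit, Brca2 lost its calls in CK-p25 neurons with and without GENUS against CK neurons. Ccng1 lost its call in CK-p25 against CK microglia in that fit too. Depth is unknown, and members below 1 FPKM are the least certain.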
